A study of Mus musculus with 31 samples.

Results

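Thymic tumors that arose after ENU in mice heterozygous for NDR1 are described here against those of wild-type mice, across all genes of the array. The comparison covers 12 of the 31 arrays of the series, chosen by the genotype and tumor-cell wording of their titles. The HT group is 7 tumors of C57BL/6 mice labelled heterozygous for NDR1, and the WT group is 5 tumors of C57BL/6 mice labelled wild type. All 12 tumors are labelled as arising after ENU (N-ethyl-N-nitrosourea, which alkylates DNA and so causes mutations) at 100 mg/kg, and collection was at tumor development or at 9 months after ENU. The WT tumors and 6 of the HT tumors were from females, and HT tumor 04 was from a male. A further 7 tumors from mice labelled KO entered the fits of differences. They added to the estimated spread, the sex term and the covariate slopes, and so bear on the HT minus WT differences. Another comparison used 4 untreated thymi each of HT and WT mice. The labels name neither the mutant allele nor the animal behind each array, so p-values measure the spread between these samples. Titles speak of tumor cells and the tissue label of thymus, and neither says whether cells were purified.

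NDR1 is a serine/threonine kinase encoded by Stk38, a relative of the LATS kinases of the Hippo pathway, and its loss is known to favor T cell lymphoma in mice. Thymic lymphomas after alkylating mutagens are tumors of immature T cells, in which Notch signalling is commonly active. A normal thymus is built of such thymocytes, with few B cells and few effector lymphocytes. B cells carry the CD79 signalling chains of the antigen receptor, the coreceptors CD22 and CD72, and the antigen-presenting MHC class II proteins. In RNA from bulk tissue, fewer cells of a type and less RNA per cell cannot be told apart.

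Values below are log2(intensity + 1), and differences are HT minus WT on that log2 scale unless said otherwise. A gene counts as called at an adjusted p under 0.05 from limma over the 14016 genes tested. The T cell receptor list (CD3 chains, Zap70, Lat and others) had a mean level of 10.83 to 12.08 over HT tumors and of 10.57 to 11.76 over WT tumors, so all 12 tumors carried the RNA of T cells. HT tumors 01 and 03 stood apart from the other 10. Along the first principal component, with 36.0% of the variance of the 12 tumors, they had scores of 133 and 125, and the other 10 lay between −69.7 and −0.52. HT tumor 07 had the largest 3′ over 5′ ratio of the actin and Gapdh control probe sets, a measure of RNA integrity, at 4.87 on the log2 scale, against 0.19 to 2.06 in the other HT tumors and 0.25 to 2.01 in WT tumors. The mean ratio was 1.37 ± 1.66 (SD, n = 7) for HT tumors and 1.15 ± 0.662 (n = 5) for WT tumors, with a 2-sided exact permutation p of 0.879. In a limma fit over the 19 tumors 3210 genes followed this ratio. On the second component, with 24.55% of the variance, HT tumors 07 and 05, those of highest HT ratio, had the lowest scores of the 12, at −84.6 and −58.0. With the ratio as a covariate no gene was called between HT and WT tumors by limma, and 896 had an unadjusted p under 0.05. The part of the ratio in the spread was not tested. No arrays were identical.

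Stk38 itself was read first. On its brightest probe set, HT tumors had 12.14, 11.12, 12.10, 11.22, 12.35, 10.71 and 12.77 (tumors 01 to 07), against 11.42, 12.42, 11.38, 12.47 and 13.04 in WT tumors. The groups overlapped, with means of 11.77 ± 0.755 (SD, n = 7) for HT tumors and 12.15 ± 0.724 (n = 5) for WT tumors, and the plain difference of −0.37 had a 2-sided exact permutation p of 0.418. The limma difference with sex in the fit was smaller, at −0.13 (SE 0.686, adjusted p = 0.989). KO tumors entered both the spread and the sex term of that fit, and so bear on this value. With sex in a fit of the 12 HT and WT tumors alone, the limma difference was −0.28. The sex term of that fit took up HT tumor 04, its only male, which so did not bear on the difference. The other 2 probe sets differed by −0.26 (exact permutation p = 0.460) and 0.14 (exact permutation p = 0.870), and over the 7 single measures tested every one of these p-values was 0.903 after Benjamini-Hochberg adjustment. In untreated thymus the same brightest probe set averaged 11.44 ± 0.115 in HT and 11.86 ± 0.148 in WT animals (n = 4 each). Where these probe sets lie relative to the mutation is not stated in the labels. Stk38l, which encodes the close relative NDR2, differed by 0.14 (SE 0.453, adjusted p = 0.980), and Bcl2l11, the gene of the cell death inducer BIM, by −0.37 (SE 0.498, adjusted p = 0.941), both from limma. Baiap3, Nron and Zfp945 differed by −0.29, 0.30 and 1.0, with adjusted p-values of 0.971, 0.965 and 0.936 in limma.

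No gene was called between HT and WT tumors by limma (0% of genes tested). The smallest adjusted p was 0.936, and 390 genes (2.78%) had an unadjusted p under 0.05. These were 186 genes higher in HT (1.33% of genes tested) and 204 genes lower in HT (1.46%). With no difference in any gene that level sets a share of 0.05, and the 2.78% seen was below it. The genes described next are those of smallest unadjusted p in each direction, with an adjusted p of 0.936 in every case, so their differences are given as values.

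Rundc3b, a RUN domain protein, had 8.62, 6.45, 7.76, 9.75, 7.79, 7.14 and 8.14 in HT tumors 01 to 07, against 6.63, 4.25, 3.02, 3.21 and 3.99 in WT tumors. HT tumors 01 and 03 to 07 lay above every WT tumor, and HT tumor 02 lay just under WT tumor 01. The difference was 3.77 (SE 0.857, unadjusted p = 0.000391). Il10, which encodes an anti-inflammatory cytokine, had 5.23, 5.02, 6.29, 7.02, 7.10, 8.14 and 3.64 in HT tumors, against 3.34, 3.26, 4.44, 3.48 and 4.36 in WT tumors. All HT tumors except 07 exceeded every WT tumor, and the difference was 2.21 (SE 0.606). Itgae, the CD103 integrin chain of intraepithelial T cells, had its lowest HT value of 7.35 in tumor 06, a median of 10.14 and a highest of 12.24, against 8.10, 5.85, 6.17, 6.09 and 9.25 in WT tumors. Its groups overlapped, with a difference of 2.92 (SE 0.867). Tob1, an antiproliferative protein of the BTG/TOB family, differed by 1.31 (SE 0.373) and overlapped between groups. Other genes on the higher side were Pqlc3, a PQ-loop membrane protein, at 1.98 (SE 0.461), the SAGA complex adaptor Tada2b at 1.06, Mlx, the MAX-like partner of the MONDO factors, at 0.81, Plpp6 at 1.02, the ARF GTPase-activating protein Smap1 at 0.67 and the long noncoding RNA Morrbid at 1.46.

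On the lower side, Vegfa, the angiogenic growth factor, had 3.86, 5.11, 4.26, 5.42, 4.63, 5.59 and 4.55 in HT tumors, against 5.64, 5.98, 6.34, 7.86 and 6.44 in WT tumors. No HT tumor reached the lowest WT tumor, and the difference was −1.71 (SE 0.532, unadjusted p = 0.00507). Lipg, endothelial lipase, had a lowest HT value of 4.41, a median of 6.2 and a highest of 9.17, against 8.90, 10.05, 9.56, 10.71 and 8.31 in WT tumors. Only HT tumor 02 entered the WT range, and the difference was −3.40 (SE 1.01). Cbfa2t3, a corepressor of the ETO family, had HT values from 7.54 to 9.56 with a median of 8.36, against 10.25, 10.57, 8.95, 10.81 and 10.01 in WT tumors, and differed by −1.69 (SE 0.472). The glycine transporter Slc6a9 differed by −1.52 (SE 0.409), the sulfurtransferase Mpst by −1.83 (SE 0.501) and the SET domain protein Setd5 by −1.39 (SE 0.397). Gm19325, acetyl-CoA carboxylase Acacb, the convertase Pcsk4 and Ifrd2 differed by −0.96, −0.86, −1.45 and −1.16. Among stromal genes, the collagen chain Col1a2 had HT values from 4.18 to 9.34 with a median of 4.80, against 12.25, 8.50, 9.52, 10.65 and 9.02 in WT tumors. HT tumor 07 alone entered the WT range, and the difference was −4.11 (SE 1.28).

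The lowest HT tumor lay above the highest WT tumor in 3 genes (0.0214% of genes tested), Cyb561d2, Echdc3 and Gm26504. The highest HT tumor lay below the lowest WT tumor in 5 genes (0.0357%), which were Vegfa, the lipase inhibitor Angptl4, the heparan sulfate proteoglycan Gpc1, the oxidoreductase Nxn and the zinc finger gene Zfp41. Apart from Vegfa these genes were named after their values were seen. Gpc1 had 5.91 and 6.21 in HT tumors 01 and 03 and 8.90 to 9.62 in the other 5, against 9.84 to 10.47 in WT tumors.

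Counts within lists of genes known for a role are given at the unadjusted level. Over all genes tested, 1.33% were higher and 1.46% lower in HT at that level. Among 20 tested MYC target and ribosome biogenesis genes, 4 had an unadjusted p under 0.05 and all 4 were lower in HT (Polr1b by −1.07, Dkc1 by −0.60, Nop58 by −1.10 and Srm by −0.88), with a list median of −0.58 against −0.01 over all genes tested. Among 13 fibroblast genes, 2 had such a p, Col1a2 and Lum, both lower in HT, and the list median was −0.78. Among 25 NDR and Hippo pathway genes none had an unadjusted p under 0.05, and the median was 0.11. Among 17 genes of the B cell list 1 had such a p, Blk with 2.79, and the median was 1.94. No list member was called.

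B cell genes set HT tumors 01 and 03 apart. The B cell list held 21 genes, of which 18 were measured and 17 passed the filter on low values. Its mean level was 11.95, 5.6, 10.66, 4.90, 6.78, 5.18 and 8.35 in HT tumors 01 to 07, against 7.61, 6.09, 5.11, 5.42 and 6.86 in WT tumors. HT tumors 01 and 03, and to a lesser degree 07, lay above every WT tumor, while HT tumor 04 had the lowest level of all. The group means were 7.63 ± 2.79 (SD, n = 7) for HT tumors and 6.22 ± 1.03 (n = 5) for WT tumors. Without HT tumors 01 and 03 the HT mean was 6.16 ± 1.42. The summed intensity of the list ran from 2572 to 141330 over HT tumors and from 3005 to 28765 over WT tumors, and no measured member stayed under the filter level in all 12 tumors. KO tumors spanned 5.70 to 12.27 with a median of 6.80, and the 12 thymi of all genotypes 5.59 to 6.71.

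**Figure D1:**
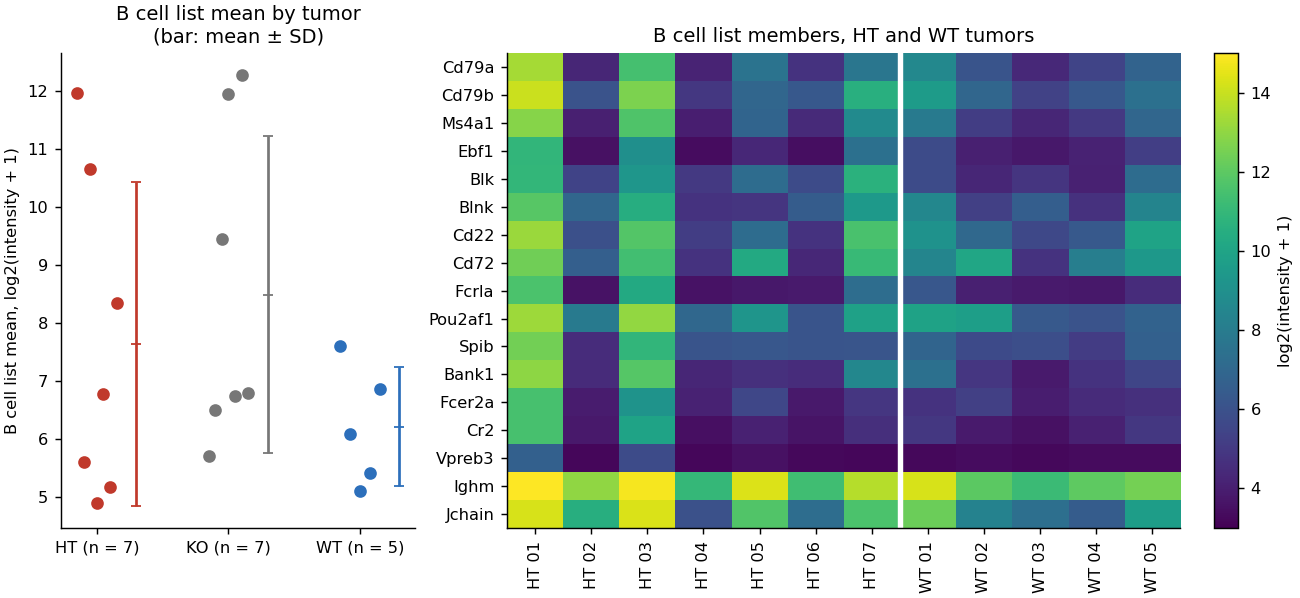
Left, mean log2(intensity + 1) of the B cell list in each tumor of the HT, KO and WT groups (points), with the group mean and SD beside them. Right, log2(intensity + 1) of the 17 tested list members in the 7 HT tumors (left of the white line) and 5 WT tumors (right of it). The columns of HT tumors 01 and 03 are high for nearly every member, with list means of 11.95 and 10.66.

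Cd79a, the immunoglobulin-alpha chain of the B cell receptor, had 13.37, 4.27, 11.45, 4.20, 7.59, 4.78 and 7.70 in HT tumors, against 8.60, 6.11, 4.39, 5.48 and 6.81 in WT tumors. Ms4a1, which encodes CD20, had 12.84 and 11.71 in HT tumors 01 and 03 and 3.99 to 8.73 in the other HT tumors, against 4.3 to 7.90 in WT tumors. Cr2, the complement receptor of mature B cells, had 11.51 and 9.96 in HT tumors 01 and 03, at most 4.6 in the other HT tumors and at most 4.96 in WT tumors. Ebf1, a transcription factor of the B lineage, had 10.88 and 8.97 in HT tumors 01 and 03 and 7.43 in HT tumor 07, and at most 5.72 in WT tumors. Vpreb3, a protein of B lineage cells, had 6.70 and 5.74 in HT tumors 01 and 03 and lay between 3.20 and 3.54 in the other 10 tumors. Of 9 tested genes of the early B cell list, 5 fell as the B cell list mean rose over the 19 tumors (Rag1, Rag2, Dntt, Bst1 and Lef1, of which Rag1, Rag2 and Dntt are also genes of immature thymocytes) and Il7r rose, with 1 falling and 1 rising in the 12 tumors and none called without the 4 highest tumors. Its mean was 9.00 and 8.81 in HT tumors 01 and 03, against 8.50 to 9.98 in WT tumors. Igll1, the surrogate light chain, had 5.67 and 4.54 there, against 4.38 to 6.56 in WT tumors. HT tumor 07 followed the B cell pattern in part. Its Blk, a SRC family kinase of B cells, was 10.64 and its Cd22 11.54, near the values of HT tumors 01 and 03, while its Fcer2a (CD23) was 4.88.

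Antibody genes were read from 45 probe sets of 21 genes, counting the surrogate light chain gene Igll1, which is no part of an antibody. HT tumor 01 lay above every WT tumor in 40 of the 45 probe sets, HT tumor 03 in 39, and both in 38. HT tumor 05 did so in 18, HT tumor 07 in 12, and HT tumors 02, 04 and 06 in 2, 4 and 4. As shares these were 88.9% for HT tumor 01 and 86.7% for HT tumor 03, against 21.3% and 19.5% of all 45100 probe sets with a value, and 40% for HT tumor 05 and 26.7% for HT tumor 07, against 18.1% and 25.1%. By more than 1 log2 unit, HT tumors 01 and 03 exceeded every WT tumor in 33 and 30 of the 45, HT tumor 05 in 5 and HT tumor 07 in 1. The kappa variable segment Igkv6-14 had 12.51 and 10.72 in HT tumors 01 and 03 and at most 4.23 in the other HT tumors, against at most 6.92 in WT tumors. Igkv14-111 had 9.33 and 10.28 in those 2 tumors, but also 8.60 in HT tumor 05, and at most 5.43 in WT tumors. Immunoglobulin segments share sequence, and a probe set may read more than 1 of them. In HT tumor 05 the IgA heavy chain gene Igha was 13.38 and the joining chain gene Jchain 11.73, against at most 11.91 for Igha and 12.31 for Jchain in WT tumors. Cd79a of the same tumor was 7.59, inside the WT range.

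Adding the B cell list mean as a covariate again left no gene called by limma (0% of genes tested). Genes at an unadjusted p under 0.05 numbered 199, of which 108 were higher and 91 lower in HT. They shared 142 genes with the 390 of the comparison without the covariate, which is 36.4% of the 390 and 71.4% of the 199. Of the 390 genes, 151 (38.7%) followed the B cell list mean over tumors at an adjusted p under 0.05. Those higher in HT had a positive slope in 84 cases and a negative slope in 0, and those lower in HT had a negative slope in 67 cases and a positive slope in 0. Matching signs were favored in advance, since slopes and differences came from the same tumors and the list mean was higher in HT. When HT tumors 01 and 03 were left out, 0 genes were called and 109 had an unadjusted p under 0.05, of which 69 (63.3%) were among the 390.

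**Figure D2:**
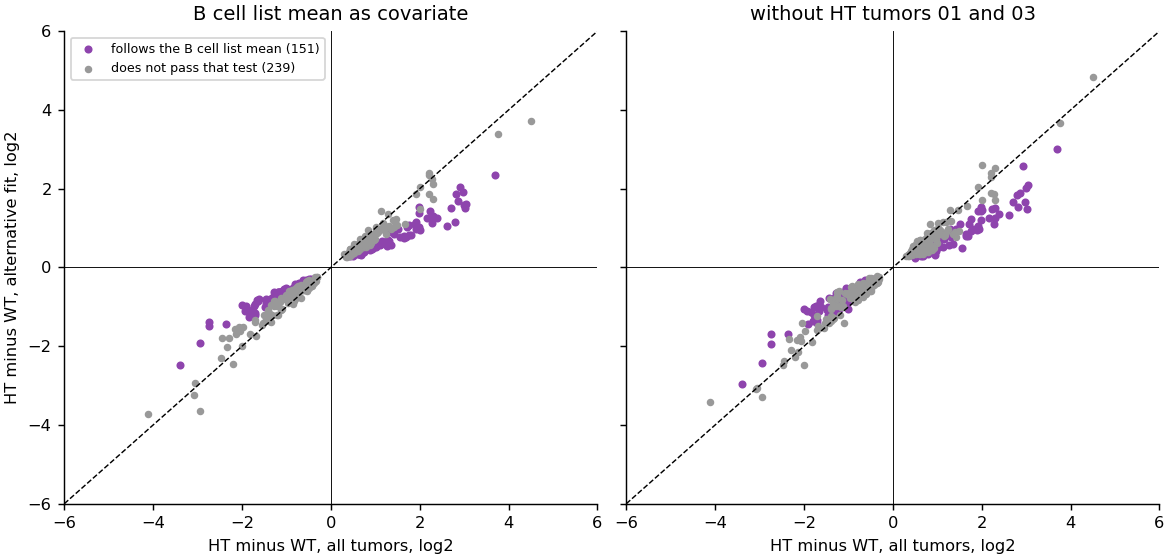
HT minus WT difference (log2) of the 390 genes at an unadjusted p under 0.05, horizontally, against the difference with the B cell list mean as a covariate (left) or without HT tumors 01 and 03 (right). The 151 genes that follow the B cell list mean (purple) lie nearer 0 than in the comparison of all tumors in 151 cases on the left and in 150 on the right, and the other 239 (grey) do so in 207 and 192. All 390 were picked by p in the comparison of all tumors, so moves toward 0 were favored in advance.

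Rundc3b kept a difference of 3.40 (SE 0.877, unadjusted p = 0.00131) with the covariate and of 3.68 without HT tumors 01 and 03, and Il10 one of 2.35 and 2.31. Cbfa2t3 had −1.74 with the covariate and −1.48 without the 2 tumors. Itgae had 2.04 with the covariate, and its own slope was positive at 0.49 per log2 unit of the list mean (limma adjusted p = 0.00440). Genes that came forward with the covariate were Emilin1, an elastic fiber glycoprotein, at 2.60 (1.60 without it), Kank4 at 3.96 (2.66) and A830010M20Rik at 1.95 (1.18). On the lower side these were the PDZ and LIM protein Pdlim4 at −3.64 (−2.94) and the BMP coreceptor Rgmb at −1.72 (−0.75). Kank4 had 11.58, 9.66 and 6.64 in HT tumors 05, 06 and 04, at most 4.61 in the other 4 HT tumors, and 3.27 to 3.59 in WT tumors.

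List medians of immune and proliferation genes also lay nearer 0 with the covariate. The median difference of the B cell list was 1.94 in the comparison of all tumors, 0.00 with the covariate and 0.26 without HT tumors 01 and 03. The value of 0.00 was fixed in advance, since the covariate is the mean of that list. For NK and cytotoxic effector genes these medians were 1.74, 0.39 and 0.09, for MHC class II genes 1.07, −0.23 and 0.15, for interferon response genes 0.99, −0.08 and −0.10, and for mature T cell genes 0.98, −0.20 and 0.05. Mitosis genes had −0.80, −0.20 and −0.34, and DNA replication genes −0.66, −0.14 and −0.23. The fibroblast list kept −0.78, −0.84 and −0.58. Medians over all genes tested were −0.01, 0.00 and 0.01.

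Over the 19 tumors, with genotype and sex in the fit, 2905 genes (20.7%) followed the B cell list mean. Of these, 1564 rose with it (11.2% of genes tested) and 1341 fell (9.57%). All 17 tested list members rose, which the measure itself sets, and 2888 of the called genes were not members. In the fit of the 12 HT and WT tumors alone 1009 genes were called, 984 of them among the 2905. Each of the 2905 had the same sign there. Overlap and matching signs were favored in advance, since the 12 tumors are among the 19. The sex term of that fit took up HT tumor 04, its only male, so this tumor did not bear on its slopes. The 4 tumors of highest mean were HT 01, HT 03, KO 04 and KO 06. Without them 644 genes were called, 491 rising (3.5% of genes tested) and 153 falling (1.09%), against 4.87% and 2.33% in the 12 tumors. With the 3′ over 5′ ratio as a further covariate 1896 genes rose and 1771 fell.

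The 10 steepest positive slopes outside the list were of Srpk3, Ighv14-2, Rasgrp3, Fcmr, Ccr6, Ccl5, Mef2c, Tnfrsf13c, Cxcr5 and Gimap3. Several are B cell genes by textbook, namely the BAFF receptor Tnfrsf13c, the IgM receptor Fcmr, the follicle-homing receptor Cxcr5 and the B lineage factor Mef2c. Fcmr rose by 1.31 (SE 0.055) per log2 unit, with 13.48 and 11.05 in HT tumors 01 and 03, 4.15 to 7.99 in the other HT tumors and 4.35 to 7.84 in WT tumors. Ccl5, a chemokine of effector T and NK cells, rose by 1.24 (SE 0.171). Gimap3, a GTPase of lymphocytes, rose by 1.2 (SE 0.073). The 6 steepest negative slopes were of Vwce, Ptcra, Arsi, Gfra1, Gm266 and Cpsf4l. Ptcra, the pre-T cell receptor alpha chain of immature thymocytes, fell by 1.04 (SE 0.140) per log2 unit. It had 4.92, 11.94, 9.10, 12.18, 9.22, 12.55 and 8.54 in HT tumors, against 8.61, 11.55, 12.42, 8.74 and 11.29 in WT tumors. HT tumor 01 was the lowest, and HT tumor 03 lay within the range of both groups. Gfra1, a GDNF receptor, fell by 1.02 (SE 0.152).

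**Figure D3:**
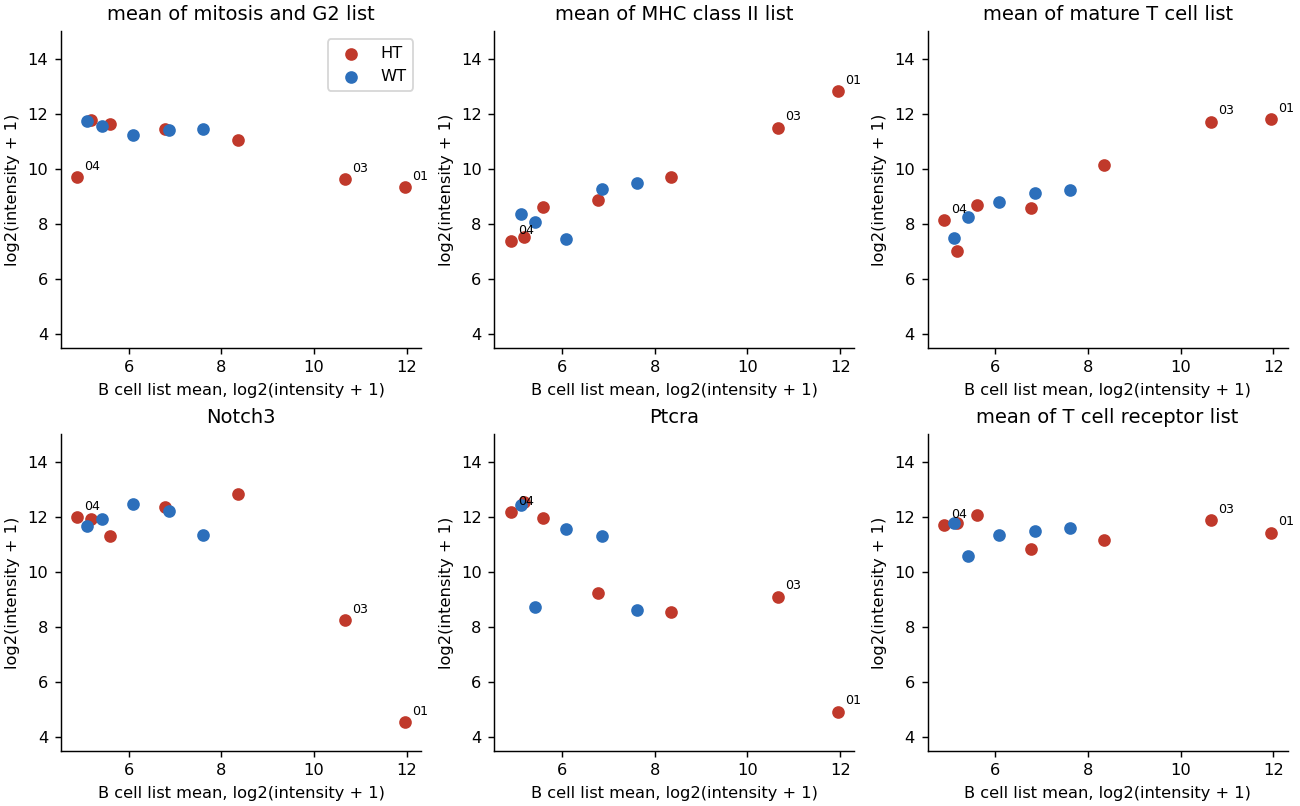
Level of 3 gene lists and of Notch3 and Ptcra, with the T cell receptor list for comparison (vertical, log2(intensity + 1)), against the B cell list mean (horizontal, same unit) in 7 HT and 5 WT tumors. Numbers mark HT tumors 01, 03 and 04. MHC class II and mature T cell genes are highest in HT tumors 01 and 03, mitosis genes are low in those 2 and in HT tumor 04, and the T cell receptor list stays between 10.57 and 12.08.

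MHC class II genes followed the B cell list mean as a group, with 9 of 9 rising. In the fit of 12 tumors 7 of them were called, and without the 4 highest tumors 3. H2-Ab1, the beta chain of I-A, had 14.29 and 12.82 in HT tumors 01 and 03 and 8.54 to 10.38 in the other HT tumors, against 8.38 to 10.63 in WT tumors. Ciita, the coactivator that switches these genes on, had 7.22 in HT tumor 01 and 3.28 to 5.34 in the other HT tumors, against 4.29 to 4.69 in WT tumors. Mature T cell genes rose in 13 of 14 cases, with 10 called in the 12 tumors and 4 without the 4 highest. S1pr1, the exit receptor of mature thymocytes, had 10.04 and 9.47 in HT tumors 01 and 03 and at most 4.92 in the other 10 tumors. Ms4a4b had 14.24 and 14.50 there, at most 9.69 in the other HT tumors and at most 10.04 in WT tumors.

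Of 12 NK and cytotoxic effector genes 11 rose and 1 fell, with 9 and 0 called in the 12 tumors and 1 and 0 without the 4 highest. Gzmk, a granzyme of effector T cells, had 11.31 and 11.996 in HT tumors 01 and 03, at most 4.58 in the other HT tumors and at most 4.74 in WT tumors. The member that fell was Gzma, at 11.46 and 11.51 in those tumors, 11.90 to 13.54 in the other HT tumors and 10.32 to 13.73 in WT tumors. Fasl, the death receptor ligand, had 9.39 and 12.17 in HT tumors 01 and 03 and 3.16 to 4.06 in the other 10 tumors. Interferon response genes rose in 11 of 15 cases, NF-kappaB subunits and targets in 10 of 13, immediate early genes in 8 of 12, neutrophil genes in 6 of 8 and macrophage genes in 6 of 15, and none of those lists had a member that fell. In the 12 tumors these counts were 7, 6, 4, 1 and 1, and without the 4 highest tumors 0, 4, 3, 0 and 1. A count of 1 in lists of 8 and 15 is close to the shares of all genes given above. S100a8, a calcium-binding protein of neutrophils, was 12.04 and 12.94 in HT tumors 01 and 03, and also 11.05 in HT tumor 05 and 9.15 in WT tumor 02. Markers of several cell types besides B cells were therefore high in the same 2 tumors, and the part of each in the slopes was not tested.

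**Figure D4:**
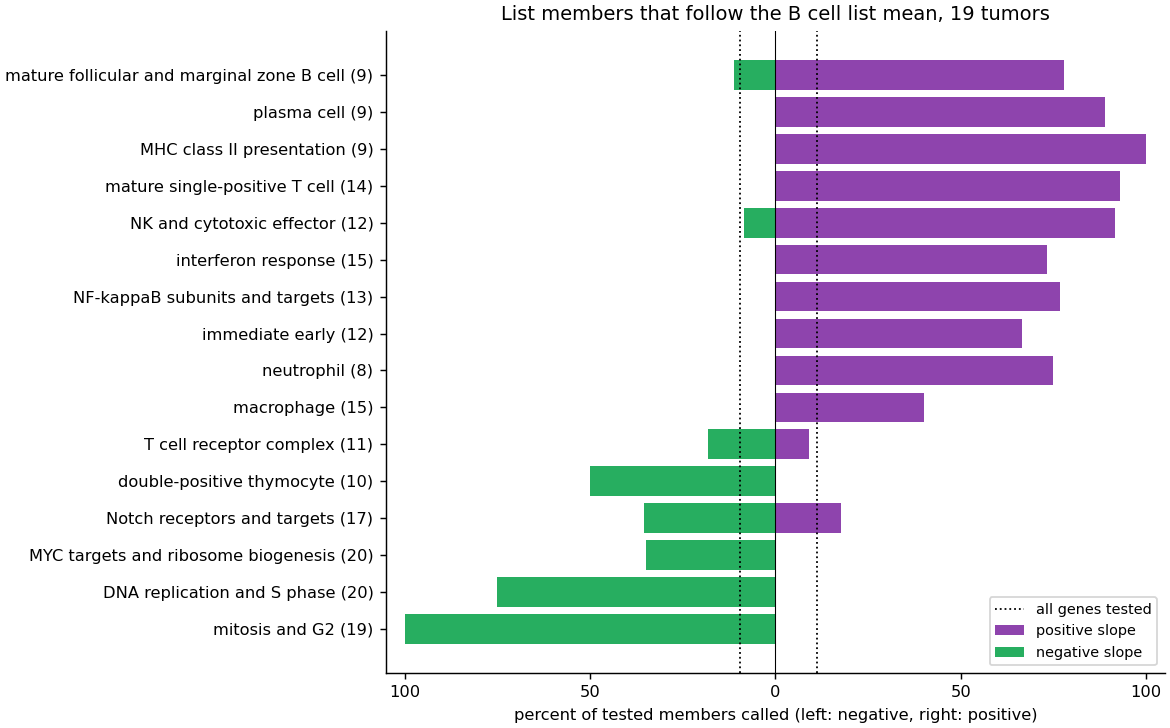
Percent of the tested members of each gene list (number in brackets) that followed the B cell list mean over 19 tumors, with positive slopes to the right and negative slopes to the left. Dotted lines mark all genes tested, at 11.2% positive and 9.57% negative. The mature B cell list shares 4 of its listed genes, and the plasma cell list 1, with the list that made the measure.

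Proliferation genes fell as the B cell list mean rose. All 19 tested mitosis genes and 15 of 20 DNA replication genes had a negative slope called, and no member of either list rose. In the fit of the 12 tumors, where HT tumor 04 did not bear on the slopes, 12 and 10 members were called. Without the 4 highest tumors none of either list was called. The mitosis list mean was 9.33, 11.64, 9.62, 9.69, 11.45, 11.77 and 11.04 in HT tumors 01 to 07, against 11.46, 11.23, 11.75, 11.54 and 11.40 in WT tumors. HT tumors 01, 03 and 04, and by a small margin 07, lay below every WT tumor, and HT tumor 04 had the lowest B cell list mean of the 12 tumors. Plk1, a kinase of mitotic entry, had 7.74, 10.26, 7.33, 7.27, 10.45, 10.66 and 9.52 in HT tumors, against 9.9995, 10.43, 10.52, 10.73 and 9.73 in WT tumors. Aurka, the centrosomal mitotic kinase, had 7.76, 8.14 and 8.47 in HT tumors 01, 03 and 04, 9.83 to 10.63 in the other HT tumors, and 10.001 to 10.15 in WT tumors. DNA replication genes were low in HT tumors 01 and 03, at list means of 9.98 and 10.29, and less so in HT tumors 04 and 07 at 11.16 and 11.20, against 11.48 to 11.85 in WT tumors.

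Notch pathway genes went both ways, with 6 of 17 falling and 3 rising. In the 12 tumors 3 fell and 2 rose, and without the 4 highest tumors none was called. The members that fell were Notch1, Notch3, Hes1, Heyl, Dtx1 and Ptcra, several of them active in immature thymocytes, and those that rose were Notch2, Hes5 and the glycosyltransferase Lfng. Notch3 had 4.55, 11.29, 8.25, 11.99, 12.37, 11.91 and 12.83 in HT tumors, against 11.35, 12.45, 11.67, 11.92 and 12.20 in WT tumors. HT tumors 01 and 03 were the lowest of all 12, and its slope was −0.99 (SE 0.167) per log2 unit. Without the 4 highest tumors that slope was 0.14 and was not called. Dtx1, a Notch target, had 9.94, 10.85 and 10.89 in HT tumors 01, 03 and 05 and 13.06 to 13.49 in the other HT tumors, against 12.32 to 12.94 in WT tumors. The T cell receptor list had 1 member that rose, Cd5, and 2 that fell, Ptcra and Lat, of 11 tested. In the double-positive thymocyte list 5 of 10 fell, and none of it was called in the 12 tumors alone.

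Promoters are shown for members of the groups that moved together, as RefSeq sequence of build GRCm38.p6, 5′ to 3′ on the gene's strand and ending at the base before the transcript start. The letters searched were the octamer ATGCAAAT, which OCT factors bind, and CCAAT, the box bound by NF-Y, on both strands in the 250 bases before the start. Capitals mark the motif a sequence is shown for, the octamer in Blnk and Vpreb3 and CCAAT in the others, and a CCAAT box of Blnk stands in lower case. The octamer was found in 2 of 13 B cell list genes with an entry, Blnk and Vpreb3 (15.4%, against 1.56% of the 11256 tested genes with an entry). It was in 0 of 15 mitosis, 0 of 6 MHC class II and 0 of 17 DNA replication genes, in 2.58% of genes with a positive slope and in 1.11% of those with a negative slope.
Blnk, chr19:40994222-40994371, minus strand: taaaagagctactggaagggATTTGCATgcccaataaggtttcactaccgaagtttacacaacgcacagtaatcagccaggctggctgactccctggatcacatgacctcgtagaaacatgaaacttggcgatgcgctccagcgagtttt
Vpreb3, chr10:75948150-75948299, plus strand: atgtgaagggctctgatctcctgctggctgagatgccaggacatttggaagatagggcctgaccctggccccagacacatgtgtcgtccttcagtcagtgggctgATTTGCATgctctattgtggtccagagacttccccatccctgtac
Among genes with an entry, a CCAAT box was found in 6 of 6 MHC class II genes, in 13 of 15 mitosis genes (86.7%), in 11 of 17 DNA replication genes (64.7%) and in 5 of 13 B cell list genes (38.5%), against 39.8% of tested genes. Its share was 38.1% of genes with a positive slope and 44.3% of those with a negative slope. The boxes began 59 and 35 bases before the start in H2-Eb1, 48 in H2-Aa, 132 and 71 in Cenpf, 51 and 19 in Aurka and 14 in Plk1.
H2-Eb1, chr17:34305717-34305866, plus strand: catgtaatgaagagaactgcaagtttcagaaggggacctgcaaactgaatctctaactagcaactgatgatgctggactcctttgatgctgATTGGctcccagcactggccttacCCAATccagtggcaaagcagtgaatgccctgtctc
H2-Aa, chr17:34287824-34287973, minus strand: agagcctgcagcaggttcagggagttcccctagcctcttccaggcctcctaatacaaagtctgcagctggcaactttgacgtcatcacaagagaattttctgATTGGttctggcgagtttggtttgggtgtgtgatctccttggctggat
Cenpf, chr1:189688087-189688236, minus strand: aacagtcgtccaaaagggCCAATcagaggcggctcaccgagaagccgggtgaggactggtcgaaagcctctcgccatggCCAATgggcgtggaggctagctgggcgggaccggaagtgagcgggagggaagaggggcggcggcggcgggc
Aurka, chr2:172370571-172370720, minus strand: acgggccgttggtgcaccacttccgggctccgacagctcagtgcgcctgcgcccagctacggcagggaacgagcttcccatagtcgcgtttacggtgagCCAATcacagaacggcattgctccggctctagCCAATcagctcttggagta
Plk1, chr7:122159285-122159434, plus strand: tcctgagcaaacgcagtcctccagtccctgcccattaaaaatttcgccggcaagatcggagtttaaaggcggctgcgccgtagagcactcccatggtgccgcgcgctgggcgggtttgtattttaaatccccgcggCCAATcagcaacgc
CCAAT boxes therefore stood in promoters of genes that rose with the B cell list mean and of genes that fell with it. The element TTTGAA, known from promoters of cell cycle genes, was in 6 of 15 mitosis genes (40%) and in 13.3% of tested genes.

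Spread between tumors was set side by side for both genotypes. The median SD over genes was 0.603 in HT and 0.447 in WT tumors, and the SD was larger in HT for 9718 genes (69.3%). It was 0.655 in KO tumors, and 0.174 in HT and 0.173 in WT thymi. Without HT tumors 01 and 03 the HT median was 0.545, and without 01, 03 and 04 it was 0.557. Removing each gene's slope on the B cell list mean left 0.518 in HT and 0.460 in WT tumors. The B cell list mean took up 40.5% of the within-group sum of squares of HT tumors and 16.7% of that of WT tumors. Slopes were fitted within each group, and any covariate takes up a larger share by chance in the smaller WT group. These shares therefore have unlike baselines. Correlations between tumors over genes, which are not independent replicates, were 0.837 to 0.975 for the 21 HT pairs (median 0.888) and 0.907 to 0.947 for the 10 WT pairs (median 0.942). The closest HT pair was 01 with 03.

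Each tumor's mean absolute deviation from its group was 0.647 ± 0.120 (SD, n = 7) for HT tumors and 0.502 ± 0.048 (n = 5) for WT tumors. HT tumor 07, with the high 3′ over 5′ ratio, deviated most at 0.826, and HT tumors 02 and 04, at 0.479 and 0.516, lay within the WT range of 0.464 to 0.569. The difference of 0.145 had a 2-sided exact permutation p of 0.0341, or 0.239 after Benjamini-Hochberg adjustment over 7 measures, and 0.0025 was the smallest p possible. Deviations were taken from each group's own mean before labels were permuted, so as a test of spread this p is approximate. Deviations from the group median were not tested in this way. Without HT tumors 01 and 03 the difference was 0.083 (exact permutation p = 0.198). With 1 tumor left out it was smallest without HT tumor 07, at 0.098 (exact permutation p = 0.117).

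**Figure D5:**
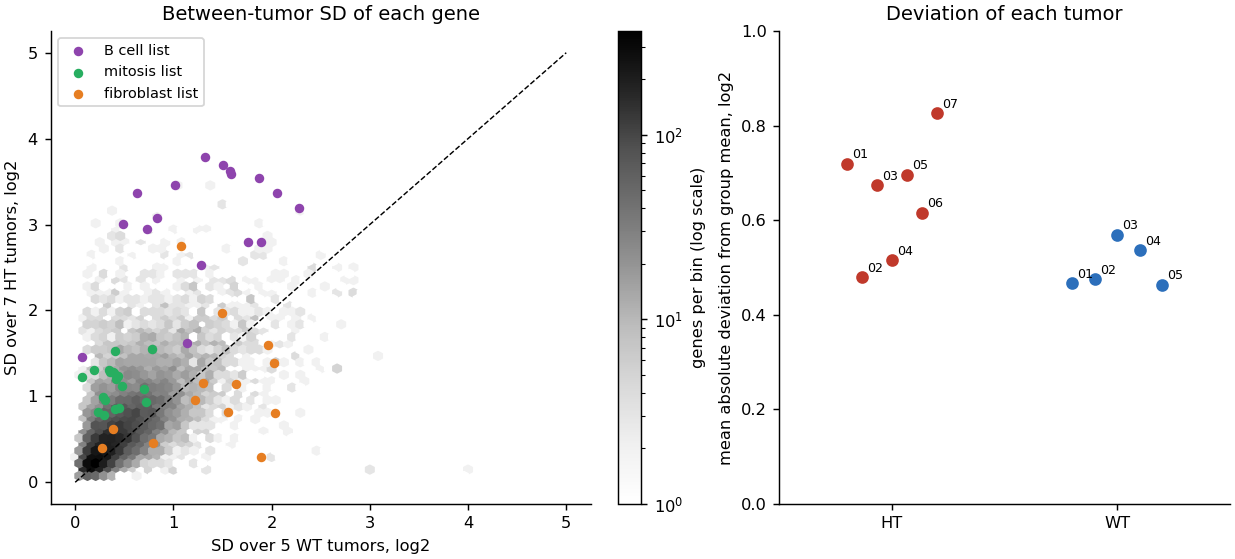
Left, SD of each gene over 7 HT tumors (vertical) against its SD over 5 WT tumors (horizontal), both in log2 units, with grey shading for the number of genes and colored points for 3 gene lists. B cell and mitosis genes lie above the dashed line of equality, and most fibroblast genes below it. Right, mean absolute deviation of each tumor from its group mean, numbered by tumor.

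The SD of HT tumors was over 3 times that of WT tumors in 1246 genes, of which 693 (55.6%) followed the B cell list mean. The SD of WT tumors was over 3 times that of HT tumors in 182 genes, of which 0 did. Slopes and SDs both draw on HT tumors 01 and 03, which have high B cell list means, so these shares are not independent of the SDs. Every one of the 17 B cell list genes and 19 mitosis genes had the larger SD in HT, with median SDs of 3.20 in HT against 1.32 in WT for the B cell list and of 1.2 against 0.393 for mitosis genes. Of 13 fibroblast genes 4 had the larger SD in HT, and the list medians were 0.957 in HT and 1.49 in WT.

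The test of spread, made with limma on absolute deviations from the group mean, called 25 genes wider in HT (0.178% of genes tested) and 21 wider in WT (0.15%). With deviations from the group median it called none, and 236 genes had an unadjusted p under 0.05 there, against 1602 with the mean. Deviations from a mean are nearly alike when tumors fall on 2 levels, which lowers their estimated error, so the calls are given with both groups' values. Of the 19 tested mitosis genes 2 were called wider in HT, Cenpf and Aurka. Hmmr, Ckap2l, Kif4 and the DNA repair gene Fancd2, none of them on that list, were called wider in HT as well. After removal of the slope on the B cell list mean 0 genes were wider in HT and 22 in WT. Cenpf, a kinetochore protein, had 8.75, 8.99 and 8.88 in HT tumors 01, 03 and 04 and 11.17 to 11.53 in the other 4, against 11.00 to 11.52 in WT tumors. Cers4, a ceramide synthase, had 8.71 to 10.99 in HT tumors 01, 03, 05 and 07 and at most 4.18 in the others, against at most 4.13 in WT tumors. Cd7, a T and NK cell antigen, had 9.41, 8.47 and 8.38 in HT tumors 01, 03 and 07, at most 5.70 in the other HT tumors and at most 4.66 in WT tumors.

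Wider in WT were genes high in a pair of WT tumors. Adgra3, an adhesion receptor, had at most 3.82 in HT tumors, against 9.23 and 8.80 in WT tumors 01 and 04 and at most 3.62 in the other 3. Rgs5 (a pericyte gene), Lum (a matrix proteoglycan), Serping1 and Pax7 (the satellite cell factor of muscle) were high in WT tumors 03 and 05. Pax7 had 3.04 to 5.36 in HT tumors, against 10.86 and 9.56 in those WT tumors and at most 3.42 in the other WT tumors. Lum had 2.98 to 3.91 in HT tumors, against 6.52 and 7.20 in the same pair and at most 3.63 in the other WT tumors. Inava had at most 3.32 in HT tumors, against 7.70 and 9.80 in WT tumors 02 and 04 and at most 3.88 in the other WT tumors. Without WT tumors 03 and 05 no gene was called by limma, and 1415 had an unadjusted p under 0.05. Without HT tumors 01 and 03, 1 gene was called, wider in WT.

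The HT effect in tumors was last set against the HT effect in untreated thymus, in 1 fit of all 31 arrays. The difference of the 2 effects called no gene by limma (0% of genes tested), and 147 genes had an unadjusted p under 0.05. For Stk38 it was 0.16 (limma adjusted p = 0.999), and for Rundc3b 3.78, with a thymus difference of −0.07 between HT and WT animals.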

How the data were processed

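Total RNA was hybridised to Affymetrix mouse expression arrays. The deposited intensity values are on a linear scale, and the authors used GCRMA, per the submitters' processing notes, which give no version. The label protocol names a whole-transcript assay. Every array has a median of 20.0, and precision is limited by how few arrays there are.

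Of 45101 probe sets, 34957 carried 1 gene, 932 several and 9211 none. The brightest probe set stood for each gene, and 14016 of 18193 genes passed a filter at the 25th percentile of mean level (3.61). Values were taken as log2(intensity + 1) and fitted with limma 3.58.1 in R 4.3.3 on the 19 tumors with sex as a covariate, with Benjamini-Hochberg adjustment over all genes tested. The spread was fitted on 12 tumors and the comparison with thymus on 31 arrays. The limma steps were tested on simulated data. Named genes are Stk38, Stk38l, Bcl2l11, Baiap3, Nron and Zfp945, the 10 smallest p in each direction of the comparison, 6 in each direction with the covariate, the 10 largest positive and 6 largest negative slopes, the 6 smallest p in each direction of the spread, up to 4 members of each list by smallest p, and the B cell and immunoglobulin genes. Other genes named, among them those whose groups do not overlap and further list members, were chosen after their values were seen. The rule, members and lists were chosen with earlier results of these data known. The main fits did not pair tumors by replicate number. Correlations of same-numbered HT and WT tumors, on a measure other than levels over genes, ran from −0.21 to 0.21.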

Additional observations from a re-analysis of the deposited data

Results flagged for a closer look

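Among 226 groups of values examined, 10 held 1 tumor far from the others of its group, 6 in HT and 4 in WT, and chance flags about 1 group in 20. HT tumor 05 was lowest for Mlx at 8.57 (next tumor 9.13) and highest for Slc6a9 at 5.11 (next 4.19). HT tumor 07 was highest for Gm26504 at 5.43 (next 4.24) and for the 3′ over 5′ ratio at 4.87 (next 2.06). HT tumor 06 was highest for the mean of the MYC and MAX network list at 9.33 (next 8.85), and HT tumor 03 for the mean of the erythroid list at 4.27 (next 3.74). WT tumor 03 was highest for Emilin1 at 6.91 (next 4.71) and lowest for Bcl2l11 at 10.555 (next 12.85). WT tumor 04 was highest for Zfp41 at 7.23 (next 6.65), and WT tumor 01 for Mef2c at 6.97 (next 4.52).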

How the results depend on the processing

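The counts of 0 between HT and WT tumors, with the B cell covariate and against thymus were 0 under all alternatives run. Leaving out 1 tumor at a time gave smallest adjusted p-values (limma) of 0.757 to 1.0 without the covariate and 0.148 to 1.0 with it. The 390 genes at an unadjusted p under 0.05 became 1277 with array weights, 896 with the 3′ over 5′ ratio as a covariate, 199 with the B cell covariate, 109 without HT tumors 01 and 03, 752 over every probe set, 150 without HT 01, HT 03, KO 04 and KO 06 (the 4 highest in B cell genes, chosen after seeing the data), and 192 (without HT 03) to 751 (without HT 05) with 1 tumor left out. The 2905 genes on the B cell list mean became 1009 in 12 tumors, 4889 with array weights, 1799 without HT tumors 01 and 03, 644 without the 4 tumors, and 2374 to 3127 with 1 tumor left out. The 46 genes of the spread became 0 with squared deviations, 0 with the group median, 16 with a 50th percentile filter, 22 after removing the B cell slope, 1 without HT tumors 01 and 03, 25 in females, 7 without HT tumors 01, 03 and 04, 0 without WT tumors 03 and 05 (both chosen after seeing the data), and 3 (without HT 01) to 201 (without HT 05) with 1 tumor left out. The cause was not tested.

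The mean deviation difference was 0.0827 without HT tumors 01 and 03 and 0.0979 to 0.184 with 1 tumor left out (exact permutation p 0.00649 to 0.117). With 1 tumor left out the 3′ over 5′ difference ran from −0.362 to 0.439 and the plain differences of the 3 Stk38 probe sets from −0.565 to −0.150, −0.472 to −0.0133 and −0.135 to 0.385, and the last was −0.158 without HT tumors 01 and 03. Of 1040 values for 39 genes, 19 turned direction, none of them called: Stk38l (−0.14 without HT tumors 01 and 03, −0.17 without the 4 tumors, −0.0115 to 0.41 with 1 tumor left out, −0.24 and −0.0381 on other probe sets), the limma difference of Stk38 (−0.13 with all tumors, 0.14 on another probe set, 0.03 without HT 02, 0.09 without WT 05, range −0.32 to 0.11 with 1 tumor left out), Bcl2l11 (0.36, 0.16, 0.58 and 0.24 on other probe sets), Setd5 (0.24), A830010M20Rik (−0.46), Rgmb (0.12) and Zfp945 (−1.06) on other probe sets, Nron (−0.00299 to 0.55) and Baiap3 (−0.68 to 0.0495) with 1 tumor left out. Of 442 slope values for 17 genes, 2 turned, Notch3 (0.14) and Arsi (0.0716) without the 4 tumors, and 13 lost their call.

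With the replicate number as a block the counts were 0 and 331 between HT and WT tumors and 2070 on the B cell list mean. Correlations of levels over genes ran from 0.821 to 0.979 over all HT to WT pairs. On a different measure, same-numbered HT and WT tumors correlated at 0.206, −0.208, 0.0766, −0.147 and −0.0268. So few values cannot show whether equal numbers carry a shared batch. The spread was not fitted with a block.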

Other observations

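Slc15a2, a peptide transporter gene chosen after its values were seen, had 3.53 to 11.27 in HT tumors with a median of 9.03, against 3.59 to 5.46 in WT tumors. In untreated thymus it averaged 5.78 ± 3.44 (SD, n = 4) in HT and 10.97 ± 0.71 (n = 4) in WT animals. The HT effect in tumors minus that in thymus was 9.60 (SE 2.51), with a limma adjusted p of 0.999.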
